A study of Mus musculus and Macaca nemestrina with 20 samples.

Results

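A set of 10 genes, 7 matrix metalloproteases (MMPs) and 3 tissue inhibitors of metalloproteases (TIMPs), were followed in dorsal root ganglia (DRG), the sensory ganglia beside the spinal cord. They were chosen by symbol from the MMPs outside neutrophil granules and their inhibitors, with earlier results of these data known. All 10 were found among 29766 genes measured in mice and, under the same symbols in capitals, all 10 among 35194 genes measured in pig-tailed monkeys (Macaca nemestrina). The study sequenced total RNA of fresh frozen ganglia in 20 bulk libraries, and its title concerns the natriuretic peptide B gene in chronic itch.

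In mice, 7 libraries labelled ADAM17 knockout were set against 7 libraries labelled ADAM17 flox, which is the control genotype. The labels divide them into batch 1, with knockout 1 to 4 and flox 1 to 3, and batch 2, with knockout 5 to 7 and flox 4 to 7. In monkeys, 3 libraries came from DRG that serve skin exposed to SADBE (squaric acid dibutyl ester, which provokes contact allergy) and 3 from DRG that serve vehicle skin. The labels used here give no Cre driver, age, sex or strain for the mice, no dose or time for SADBE, and no number of animals behind a library. Whether libraries came from separate animals is not stated, so p-values measure only the spread between libraries, which may be technical.

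MMPs are zinc-dependent proteases that cut collagens, laminins and other matrix proteins, and they are made as precursors whose propeptide blocks the active site. Some are secreted and others, the membrane-type MMPs, stay on the cell surface. TIMPs block them by placing their first cysteine on the catalytic zinc, and Timp2 also takes part in activation, because it bridges the Mmp2 precursor to Mmp14 on the cell surface. In peripheral nerve the family is known for matrix remodelling after injury.

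Stretches of mouse coding sequence are shown first, because they set out which members share the catalytic site and how the precursors are opened. They come from the longest complete coding sequence of each gene in GENCODE M21 (GRCm38) and are printed 5′ to 3′ on the gene's strand. The first set is the zinc-binding site, with the 3 histidine codons in capitals. It was searched as a protein pattern of histidine, glutamate, any residue, glycine, histidine, any 2 residues, glycine, any 2 residues and histidine. All 7 MMPs held 1 copy, while 0.290% of 21732 mouse coding sequences held the pattern. Those of the secreted Mmp2 (chr8:92839279-92839311, plus strand) and of the membrane-type Mmp14 (chr14:54437627-54437659, plus), Mmp15 (chr8:95368585-95368617, plus) and Mmp24 (chr2:155807427-155807459, plus) lie within 1 exon each and read:
Mmp2: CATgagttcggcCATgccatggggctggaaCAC
Mmp14: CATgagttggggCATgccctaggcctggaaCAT
Mmp15: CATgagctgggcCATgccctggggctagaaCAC
Mmp24: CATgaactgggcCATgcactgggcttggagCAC

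The second set is a furin-type basic site, arginine, any residue, arginine or lysine, and arginine, where proprotein convertases such as furin can remove the propeptide inside the cell. It was looked for within 30 codons after the propeptide cysteine of each MMP. It was found in Mmp11 and in the 3 membrane-type members, and the letters were not in the windows of Mmp2, Mmp3 and Mmp19. Of 346374 windows of 33 codons tiled over all mouse coding sequences, 1.80% held it. The stretches, with arginine and lysine codons in capitals, stand at chr10:75928327-75928338 (minus strand) for Mmp11, chr14:54436202-54436213 (plus) for Mmp14, chr8:95366358-95366375 (plus) for Mmp15 and chr2:155798115-155798135 (plus) for Mmp24:
Mmp11: CGAcagAAGCGC
Mmp14: CGGAGGAAGCGC
Mmp15: CGTCGACGGCGGAAACGT
Mmp24: AGGAGGAGGAGAaatAAGCGA

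The third set is the start of the mature inhibitor, cysteine, any residue, cysteine, any residue and proline, with the cysteine codons in capitals. Its first cysteine is the one that reaches the zinc of the MMP. It was found in all 3 TIMPs, and the pattern occurs in 2.60% of the 21732 coding sequences. The stretches stand at chrX:20871111-20871125 (plus strand) for Timp1, chr11:118354998-118355012 (minus) for Timp2 and chr6:115251677-115251691 (minus) for Timp4:
Timp1: TGTagcTGTgcccca
Timp2: TGCagcTGCtccccg
Timp4: TGCagcTGTgcgcct

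Depth differed between the mouse genotypes in batch 1. In units of 1000000 estimated counts, knockout libraries held 12.1 to 14.7 in batch 1 and 27.9 to 30.8 in batch 2, while flox libraries held 46.9 to 52.1 in batch 1 and 30.9 to 35.99 in batch 2. Mitochondrial genes took 8.21% to 10.9% of counts in batch 1 and 0.734% to 1.76% in batch 2. Knockout libraries 6 and 7 held 59.9 and 66.8 TPM of Y-linked transcripts, against 1.11 to 3.31 TPM in the other 12 mouse libraries. Levels are given as TPM, a share of all transcripts in a library that is scaled for transcript length. The TPM of a mouse library summed, in units of 1000, to 601 to 834 in batch 1 and to 954 to 979 in batch 2. TPM of the batches, and of libraries within batch 1, are therefore not on 1 scale. The main mouse tests used counts with a batch term, and some alternatives did not.

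Adam17, the targeted gene, averaged 7.25 ± 1.45 TPM in knockout and 7.18 ± 1.51 TPM in flox libraries (SD, n = 7 each). Its log2 fold change was 0.03 ± 0.18 (SE), with an adjusted p of 0.930 by edgeR's quasi-likelihood test. A count over the whole gene does not check a deletion of some of its exons, so the genotypes below are those of the labels.

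In knockout ganglia 4 members were lower than in flox ganglia: the gelatinase Mmp2, the membrane-type Mmp14 and Mmp15, and the inhibitor Timp2. None was called higher. Of the 10 members 9 passed the filter on low counts and were tested, and Mmp3 did not pass. A gene was called where its p, adjusted by the Benjamini-Hochberg method over all 15654 genes tested, was under 0.05. That held for 15.5% of all genes tested in either direction, for 7.97% as higher and for 7.51% as lower, against 0 of the 9 members higher and 4 lower. The members' median log2 fold change was -0.68 and that of all genes -0.01. Scaling by library totals alone moved the median of all genes by -0.13 and the split of calls to 785 higher and 2135 lower (26.9% higher), against 1248 higher and 1175 lower (51.5% higher) with TMM scaling. The same 4 members were called lower there, and Mmp11 too.

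**Figure D1:**
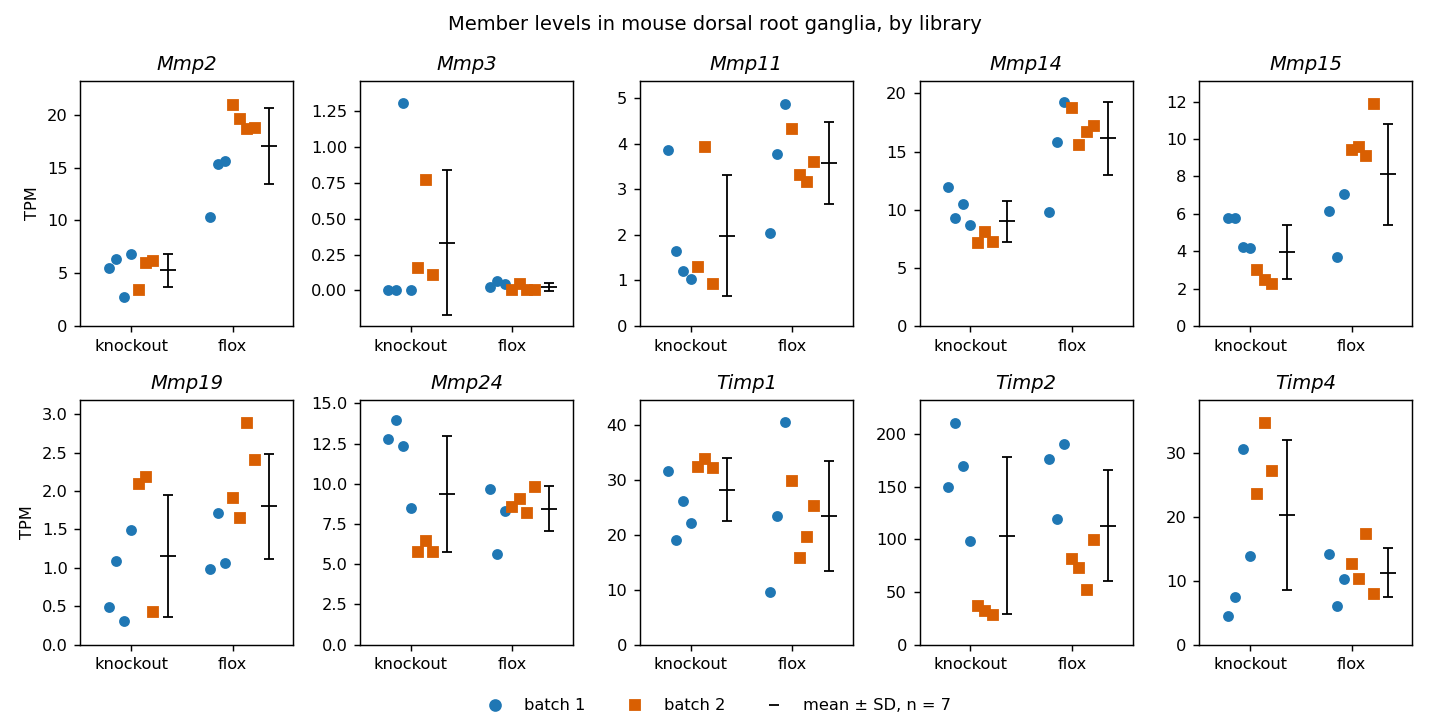
Level of each of the 10 members in TPM (y axis, a linear scale of its own for each gene) in 7 knockout and 7 flox mouse libraries, with the batch as colour and shape and the mean ± SD beside each group. Mmp2 is lower in every knockout library (2.78 to 6.79 TPM) than in every flox library (10.3 to 21.0 TPM), while the Timp2 points separate by batch.

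Mmp2, gelatinase A, is secreted by fibroblasts and other stromal cells and degrades denatured collagen and the type IV collagen of basement membranes. It had 2.78, 5.95 and 6.79 TPM (lowest, median and highest) in knockout libraries, against 10.3, 18.6 and 21.0 TPM in flox libraries. The groups did not overlap. It was the 1 tested member whose ranges were apart in that direction, which held for 0.792% of all genes tested; none was apart in the other direction, which held for 1.12%. The log2 fold change was -1.65 ± 0.24 (SE), a level 3.13-fold lower in knockout, with an adjusted p of 0.000319 by edgeR's quasi-likelihood test. Within batch 1 it was -1.56 ± 0.36 (adjusted p = 0.0722, edgeR) and within batch 2 -1.77 ± 0.26 (adjusted p = 0.00264, edgeR). In batch 1 the ranges were also apart, with knockout at 2.78 to 6.79 TPM and flox at 10.3 to 15.7 TPM. No other tested member was apart with knockout lower in batch 1 (4.66% of all genes), and none with knockout higher (6.34%).

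The other 3 secreted MMPs had lower levels than Mmp2 in TPM, by mean in both genotypes, and none of them was called. Mmp11, stromelysin 3, is made by stromal cells during remodelling and is opened inside the cell by furin. It had 0.912, 1.30 and 3.93 TPM (lowest, median, highest) in knockout and 2.03, 3.60 and 4.86 TPM in flox libraries. The groups overlapped through knockout libraries 1 and 6, at 3.86 and 3.93 TPM. The value of knockout library 1 rests on 21 estimated counts, while knockout library 4 has 29 estimated counts and 1.04 TPM, so TPM and counts order these libraries differently. The log2 fold change of Mmp11 was -0.95 ± 0.34, with an adjusted p of 0.0693 by edgeR's quasi-likelihood test. It passed with DESeq2 (adjusted p = 0.0298), with library totals alone (edgeR, adjusted p = 0.0354), and without knockout library 4 (edgeR, adjusted p = 0.0452) or 6 (edgeR, adjusted p = 0.0239).

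Mmp19, a secreted protease of basement membrane proteins, had 0.304, 1.09 and 2.19 TPM in knockout and 0.979, 1.72 and 2.88 TPM in flox libraries (lowest, median, highest). The groups overlapped widely, and the log2 fold change was -0.57 ± 0.40 (adjusted p = 0.352, edgeR). Mmp3, stromelysin 1, which degrades proteoglycans and opens other MMP precursors, was close to the detection limit. It had 0, 0, 1.30, 0, 0.156, 0.768 and 0.107 TPM in knockout libraries 1 to 7. In flox libraries 1 to 7 it had 0.0234, 0.0645, 0.0468, 0, 0.0464, 0 and 0 TPM. The sums were 67 estimated counts in knockout and 15 in flox libraries, and the knockout sum came mainly from libraries 3 and 6, with 27 and 31 counts. DESeq2, which was run without that filter, called it higher in knockout.

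The 3 membrane-type members did not move as 1 group. Mmp14 (MT1-MMP), a collagenase on the cell surface that activates the Mmp2 precursor, had 7.12, 8.67 and 12.0 TPM in knockout and 9.80, 16.7 and 19.2 TPM in flox libraries (lowest, median, highest). The groups overlapped through flox library 1 at 9.80 TPM, which lay below knockout libraries 1 and 3 at 12.0 and 10.53 TPM. The difference on the log2 scale was -0.91 ± 0.16, with an adjusted p of 0.00185 by edgeR's quasi-likelihood test. It was -0.79 ± 0.26 within batch 1 (adjusted p = 0.162, edgeR) and -1.06 ± 0.18 within batch 2 (adjusted p = 0.00540, edgeR).

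Mmp15 (MT2-MMP), a relative of Mmp14 that also acts at the cell surface, was lower in knockout by an amount that differed between batches. In batch 1 knockout libraries had 4.15 to 5.80 TPM and flox libraries 3.67 to 7.06 TPM. In batch 2 knockout libraries had 2.26 to 3.02 TPM and flox libraries 9.11 to 11.9 TPM. The groups overlapped in batch 1 and stood apart in batch 2. The log2 fold change over both batches was -1.07 ± 0.24 (adjusted p = 0.00818, edgeR), made up of -0.33 ± 0.19 in batch 1 (adjusted p = 0.425, edgeR) and -1.84 ± 0.17 in batch 2 (adjusted p = 0.000232, edgeR). The interaction of batch and genotype, tested with edgeR over all genes, was -1.54 ± 0.25 for Mmp15 (adjusted p = 0.00922). It was the 1 member called for that term, which 161 genes (1.03%) passed. Without knockout libraries 6 and 7 together, those with Y-linked transcripts, the difference of Mmp15 was -0.70 and no longer called (edgeR, adjusted p = 0.0824).

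Mmp24 (MT5-MMP) is the neuronal member of the membrane-type group. The batch 1 libraries had 8.48 to 13.96 TPM with the knockout label and 5.64 to 9.69 TPM with the flox label. The batch 2 libraries had 5.73 to 6.44 TPM with the knockout label and 8.17 to 9.77 TPM with the flox label. The knockout libraries of batch 2 were all below the flox libraries, while in batch 1 the groups overlapped with most knockout libraries higher. On the log2 scale the difference was 0.01 ± 0.16 over both batches (adjusted p = 0.983, edgeR), 0.43 ± 0.14 within batch 1 (adjusted p = 0.177, edgeR) and -0.44 ± 0.16 within batch 2 (adjusted p = 0.0884, edgeR). Its interaction term was -0.90 ± 0.21, with an adjusted p of 0.0509 by edgeR's quasi-likelihood test. That term passed without knockout library 4 (edgeR, adjusted p = 0.0342), without flox library 6 (edgeR, adjusted p = 0.0355) and with DESeq2's size factors (edgeR, adjusted p = 0.0475).

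**Figure D2:**
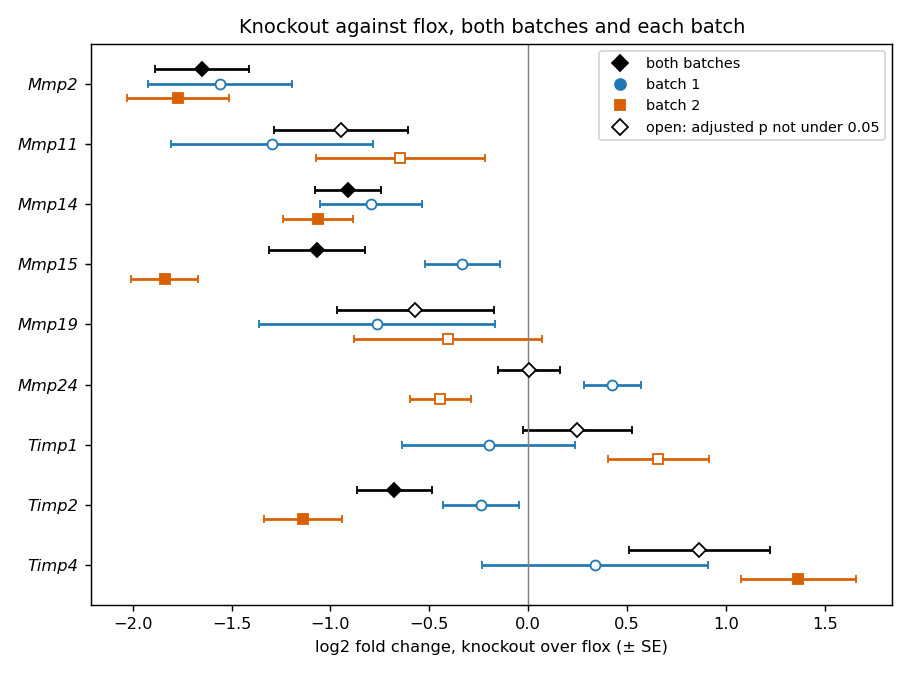
log2 fold change of knockout over flox with its SE (x axis) for the 9 members tested (rows), over both batches (diamonds), within batch 1 (circles) and within batch 2 (squares), filled where the adjusted p of edgeR was under 0.05. Mmp2 and Mmp14 lie at like values in both batches, Mmp15 and Timp2 are nearer to 0 in batch 1, and Mmp24 lies on opposite sides of 0.

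The inhibitors differed from one another. Timp2, which inhibits MMPs broadly and pairs with Mmp14 in Mmp2 activation, had the highest mean level of all members in both genotypes of batch 1 and in flox libraries of batch 2. In knockout libraries of batch 2 its mean of 32.2 TPM stood beside 32.8 TPM of Timp1. Among batch 1 libraries the knockout range was 98.4 to 210 TPM and the flox range 119 to 190 TPM. Among batch 2 libraries the knockout range was 28.2 to 37.0 TPM and the flox range 51.98 to 99.1 TPM. The groups overlapped in batch 1 and stood apart in batch 2. In TPM, whose scale differs between the batches, 6 of the 7 libraries of batch 2 were below the lowest of batch 1. The log2 fold change was -0.68 ± 0.19 (adjusted p = 0.0250, edgeR), with -0.24 ± 0.19 in batch 1 (adjusted p = 0.577, edgeR) and -1.14 ± 0.20 in batch 2 (adjusted p = 0.00601, edgeR). The call rested on single libraries: the adjusted p of edgeR was 0.0721, 0.0626 and 0.0699 without knockout library 5, 6 or 7. Without knockout libraries 6 and 7 together the difference was -0.47 (adjusted p = 0.190, edgeR), and without the batch term it was -0.19 (adjusted p = 0.924, edgeR). Its interaction term was -0.94 ± 0.29 (adjusted p = 0.124, edgeR; 0.0407 without flox library 6).

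Timp1, a secreted inhibitor induced by cytokines of the interleukin 6 family, had 19.1, 31.6 and 33.8 TPM in knockout and 9.51, 23.4 and 40.5 TPM in flox libraries (lowest, median, highest). The knockout range lay inside the flox range, with a log2 fold change of 0.25 ± 0.28 (adjusted p = 0.580, edgeR), with -0.20 ± 0.44 in batch 1 and 0.66 ± 0.25 in batch 2 (adjusted p = 0.864 and 0.118, edgeR). In batch 2 the knockout libraries held 32.2 to 33.8 TPM and the flox libraries 15.8 to 29.8 TPM, so those ranges were apart.

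Timp4, the inhibitor with the most restricted tissue range of the family, had 4.44, 23.6 and 34.6 TPM in knockout and 6.01, 10.3 and 17.3 TPM in flox libraries (lowest, median, highest). The groups overlapped, since knockout libraries 1 and 2 of batch 1 lay at 4.44 and 7.38 TPM while knockout library 3 of the same batch had 30.6 TPM. Its log2 fold change was 0.87 ± 0.36 (adjusted p = 0.114, edgeR), and it passed without knockout library 1 (1.04, adjusted p = 0.0292, edgeR). Within batch 2 it was 1.37 ± 0.29 (adjusted p = 0.0148, edgeR), with 23.6 to 34.6 TPM in knockout and 7.95 to 17.3 TPM in flox libraries. Within batch 1 it was 0.34 ± 0.57 (adjusted p = 0.816, edgeR).

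By batch, none of the 9 tested members was called within batch 1, where 1.80% of all genes were (1.12% higher, 0.687% lower). Within batch 2, where 13.2% of all genes were called (7.22% higher, 5.99% lower), Mmp2, Mmp14, Mmp15 and Timp2 were called lower and Timp4 higher. In batch 2 the ranges of 5 members were apart with knockout lower (Mmp2, Mmp14, Mmp15, Mmp24 and Timp2), which held for 18.6% of all genes. Those of Timp1 and Timp4 were apart with knockout higher, which held for 8.43% of all genes.

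Because TPM is per transcript length, levels of different members can be set side by side within a library. Over both batches, whose TPM scales differ, the order of the means in knockout libraries was Timp2 (104 ± 74.4 TPM), Timp1 (28.2 ± 5.78), Timp4 (20.2 ± 11.7), Mmp24 (9.36 ± 3.59), Mmp14 (8.99 ± 1.77), Mmp2 (5.27 ± 1.56), Mmp15 (3.96 ± 1.46), Mmp11 (1.98 ± 1.32), Mmp19 (1.15 ± 0.792) and Mmp3 (0.334 ± 0.508). In flox libraries it was Timp2 (113 ± 52.6 TPM), Timp1 (23.4 ± 10.03), Mmp2 (17.04 ± 3.59), Mmp14 (16.1 ± 3.12), Timp4 (11.2 ± 3.81), Mmp24 (8.46 ± 1.39), Mmp15 (8.12 ± 2.69), Mmp11 (3.58 ± 0.900), Mmp19 (1.80 ± 0.683) and Mmp3 (0.0259 ± 0.0270), each as mean ± SD with n = 7. The ranges of neighbours in this order overlapped except between Mmp14 and Mmp2 in knockout, and between Timp2 and Timp1 and between Mmp19 and Mmp3 in flox libraries. The order differed by batch. In knockout libraries Mmp24 stood above Mmp14 in batch 1 (11.9 and 10.1 TPM by mean) and below it in batch 2 (5.98 and 7.49 TPM), and Mmp2 was the third MMP in both. In flox libraries Mmp2 stood below Mmp14 in batch 1 (13.8 and 14.96 TPM) and above it in batch 2 (19.5 and 17.03 TPM). The 7 MMPs summed to 22.8 to 40.4 TPM in knockout and 39.0 to 63.9 TPM in flox libraries. The 3 TIMPs summed to 87.5 to 237 TPM in knockout and 88.9 to 241 TPM in flox libraries. These ranges pool batches whose TPM scales differ, so their likeness does not show a like total within a batch.

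Ratios within a library do not depend on its TPM scale. The ratio of Mmp2 to Mmp14 spanned 0.264 to 0.846 in knockout (median 0.683), against 0.815 to 1.26 in flox libraries (median 1.09). Only the highest knockout library, of batch 2, lay above the lowest flox library, of batch 1. In batch 2 the ratio of Timp1 to Timp2 ran from 0.875 to 1.14 among knockout libraries, against 0.218 to 0.376 among flox libraries. In batch 1 the knockout libraries had 0.0908 to 0.225 and the flox libraries 0.0539 to 0.213 for that ratio. The ratio of Timp4 to Timp2 spanned 0.636 to 1.10 in knockout, against 0.0802 to 0.334 in flox libraries of batch 2. For batch 1 it was 0.0298 to 0.180 in knockout, against 0.0503 to 0.0796 in flox libraries. Both ratios over Timp2 were thus apart between the genotypes in batch 2 and overlapped in batch 1. They share Timp2, whose own ranges were apart in batch 2, so they are not separate observations. For single genes in batch 2, ranges were apart for 18.6% with knockout lower and for 8.43% with knockout higher.

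**Figure D3:**
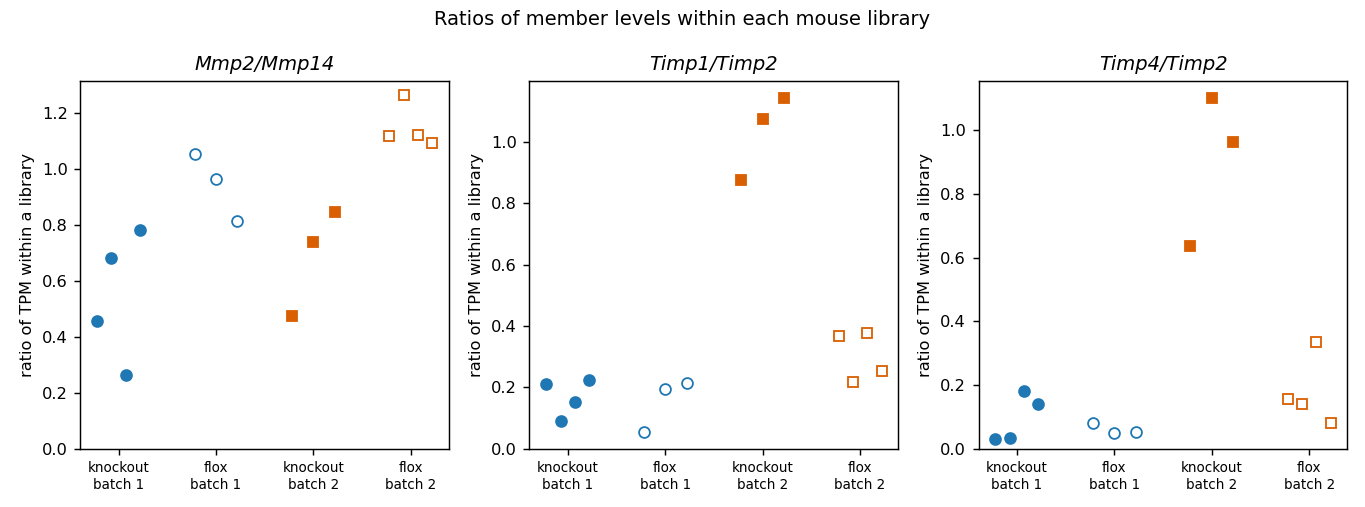
Ratio of TPM within each mouse library (y axis, no unit) for Mmp2 to Mmp14, Timp1 to Timp2 and Timp4 to Timp2, by genotype and batch, with filled points for knockout and open points for flox libraries. Both ratios over Timp2 are highest in the 3 knockout libraries of batch 2, at 0.875 to 1.14 for Timp1 and 0.636 to 1.10 for Timp4.

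Other genes of the family moved in both directions. Of 18 listed, 17 were in the tables and 11 were tested, of which 4 were called higher and 3 lower. Among all genes tested, 7.97% were called higher and 7.51% lower. The higher ones were Mmp8 (log2 fold change 3.86 ± 0.54, adjusted p = 0.000435, edgeR), Mmp9 (1.41 ± 0.37), Mmp25 (0.91 ± 0.19) and Mmp16 (0.68 ± 0.19). Mmp8, Mmp9 and Mmp25 are proteases of neutrophils. The lower ones were Mmp23 (-1.40 ± 0.26, adjusted p = 0.00240, edgeR), Timp3 (-0.82 ± 0.16), the matrix-bound inhibitor, and Reck (-0.99 ± 0.20), a membrane-anchored inhibitor of MMPs. Timp3 averaged 47.7 ± 27.6 TPM in knockout and 63.8 ± 28.4 TPM in flox libraries (SD, n = 7), a level between those of Timp2 and Timp1. Markers of neutrophils moved along with the first group: 8 of 10 were called higher, and their sum was 1382 to 16243 TPM in knockout and 131 to 1746 TPM in flox libraries. The part of those cells in the levels of Mmp8, Mmp9 and Mmp25 was not tested.

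**Figure D4:**
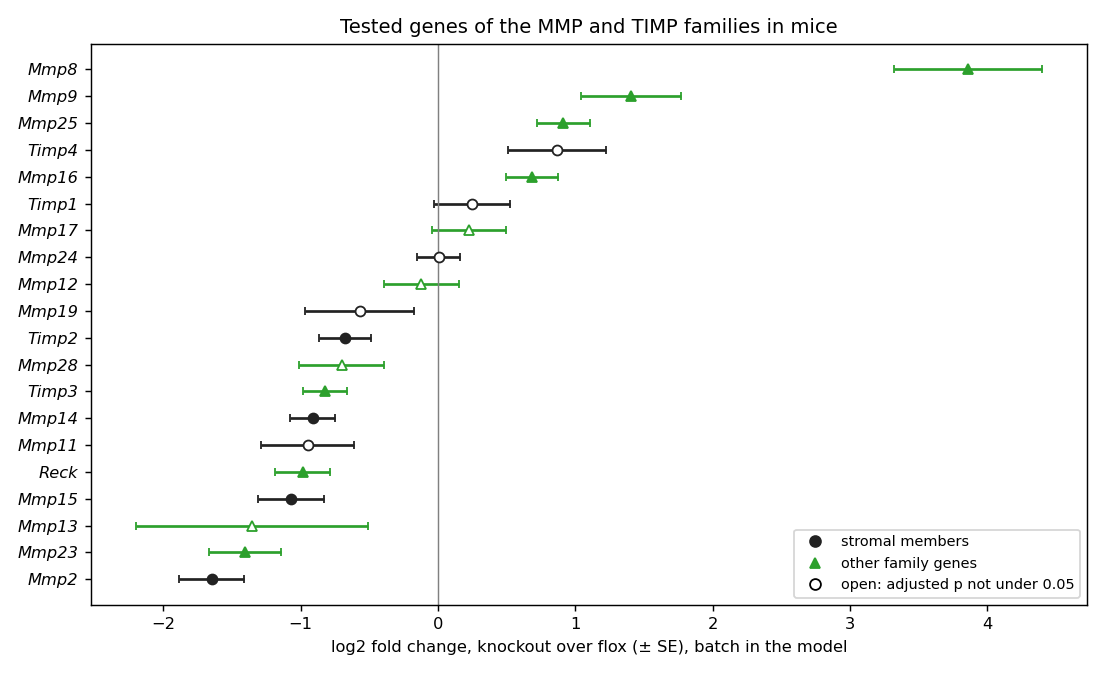
log2 fold change of knockout over flox with its SE (x axis) for the 9 tested members (circles) and the 11 other tested genes of the family (triangles), ordered by value, filled where the adjusted p of edgeR was under 0.05. Mmp2 lies lowest at -1.65 and Mmp8 highest at 3.86, and every called member lies below 0.

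The matrix proteins that MMPs cut were lower as well. Of 26 listed substrates 25 were tested, 18 were called lower and none higher, against 7.51% lower and 7.97% higher over all genes. Their median log2 fold change was -0.92, against -0.01 over all genes. Col1a1, a chain of type I collagen, averaged 11.3 ± 4.48 TPM in knockout and 53.8 ± 25.5 TPM in flox libraries (log2 fold change -2.04 ± 0.26, adjusted p = 0.000145, edgeR). Col1a2, its partner chain, averaged 30.3 ± 7.47 TPM in knockout and 96.4 ± 26.1 TPM in flox libraries (-1.61 ± 0.22). Col5a1 (-1.78 ± 0.24) and Col6a2 (-2.22 ± 0.33) were the others with the lowest p. No substrate was called within batch 1, 14 were within batch 2, and 7 were without the batch term. Over all genes 1.80% were called within batch 1, 13.2% within batch 2, and 564 of 15654 genes without the batch term.

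Genes that activate, bind or take up MMPs and TIMPs were called in both directions, 5 higher and 4 lower of 24 tested. The shares over all genes were 7.97% higher and 7.51% lower. Plaur, the urokinase receptor, averaged 31.1 ± 10.7 TPM in knockout and 9.61 ± 1.34 TPM in flox libraries (log2 fold change 1.68 ± 0.16, adjusted p = 7.75e-06, edgeR). Cd44 (0.71 ± 0.17), a hyaluronan receptor that docks MMPs, Itgb1 (0.36 ± 0.09) and Spock1 (0.64 ± 0.17) were also higher. Mrc2, the collagen uptake receptor, averaged 1.83 ± 0.658 TPM in knockout and 6.62 ± 1.92 TPM in flox libraries (-1.89 ± 0.28, adjusted p = 0.000440, edgeR). Lrp1 (-0.96 ± 0.17), which takes up MMPs and TIMPs, the proprotein convertase Pcsk6 (-1.55 ± 0.25) and Cldn1 (-1.09 ± 0.26) were lower.

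A further list held ADAM and ADAMTS proteases, sister families with the same kind of zinc site, and Bmp1 and Tll1, which belong to neither. Of its 22 tested genes 3 were called higher and 5 lower, with Bmp1 and Tll1 among the 5. Over all genes tested the shares were 7.97% and 7.51%. Adam8 (log2 fold change 2.00 ± 0.18), Adamts8 (2.22 ± 0.29) and Adamts15 (0.85 ± 0.22) were higher. Adamts2 (-1.69 ± 0.29) and Adamts14 (-1.46 ± 0.33), which trim procollagen ends, Adam12 (-1.84 ± 0.41) and Bmp1 (-0.77 ± 0.23), the procollagen C-proteinase, were lower.

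Of 26 tested regulators of MMP and TIMP genes, 7 were called higher and 4 lower, against 7.97% and 7.51% of all genes. Socs3, the feedback inhibitor of cytokine signalling, averaged 13.7 ± 2.91 TPM in knockout and 3.67 ± 1.27 TPM in flox libraries (log2 fold change 2.00 ± 0.13, adjusted p = 1.04e-07, edgeR). Osmr (1.29 ± 0.17), the oncostatin M receptor, and the AP-1 subunits Jun (1.23 ± 0.14) and Junb (1.04 ± 0.14) were also higher. Il6st (-0.62 ± 0.11), the shared receptor chain gp130, Twist1 (-1.52 ± 0.34), Nfkb1 (-0.67 ± 0.17) and the AP-1 subunit Jund (-0.71 ± 0.21) were lower.

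Promoter sequence was looked at for AP-1 and Sp1 letters, since those factors are textbook regulators of this family. RefSeq promoters (GRCm38.p6) matched 8 members. In the 250 bases before the start, the AP-1 letters TGANTCA, which read the same on both strands, occurred in Mmp3, and in 6.75% of 32851 mouse promoters. The GC box GGGCGG, read on both strands, occurred in 6 of the 8 members and in 32.7% of promoters. The 80 bases before the start are shown for Mmp3 (chr9:7445742-7445821, plus strand), with the AP-1 letters in capitals, and for Mmp14 (chr14:54431518-54431597, plus strand), the called member whose window holds no annotated exon, with its GC boxes in capitals:
Mmp3: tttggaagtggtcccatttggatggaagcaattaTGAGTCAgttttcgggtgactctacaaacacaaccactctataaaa
Mmp14: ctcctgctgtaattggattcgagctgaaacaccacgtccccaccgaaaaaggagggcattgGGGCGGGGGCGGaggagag

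Markers of stromal cells moved in the same direction as Mmp2 and Mmp14. For the counts of markers below, 7.97% of all genes were called higher and 7.51% lower. Of 10 fibroblast markers 9 were called lower, with a median log2 fold change of -1.42, and their summed level was 865 to 2097 TPM in knockout and 1771 to 4038 TPM in flox libraries. Of 6 perineurial markers 4 were lower (73 to 181 TPM in knockout, 213 to 409 TPM in flox), of 7 mural markers 3, of 8 Schwann cell markers 6 and of 6 tested cartilage and bone markers 4. None of 7 endothelial or 8 macrophage markers was called, of 7 satellite glia markers 1 was higher, and of 6 tested meninges and spinal cord markers 2 were lower. Sums of the latter were 631 to 1804 TPM in knockout and 3459 to 6664 TPM in flox libraries of batch 1. In batch 2 they were 2094 to 24430 TPM in knockout and 13356 to 30761 TPM in flox libraries. Of 5 tested mast cell markers 1 was higher and 2 were lower, and no skeletal muscle, adipocyte or erythroid marker was called. Of 10 sensory neuron markers 3 were called higher and 0 lower, with sums of 3755 to 10156 TPM in knockout and 2296 to 7752 TPM in flox libraries, so the neuronal markers of a ganglion were present in every library. No marker of these lists was at 0 in all libraries. The fibroblast list shares Col1a1, Col1a2, Col3a1, Dcn and Lum with the list of matrix substrates, so their counts are not separate. The cartilage and bone list shares Acan with the substrates. Cldn1 is both a perineurial marker and in the list of genes that activate, bind or take up MMPs and TIMPs. Fibroblast sums were apart within batch 2 (1085 to 2097 TPM in knockout, 2947 to 4038 TPM in flox). Within batch 1 they ran from 865 to 1767 TPM in knockout and from 1771 to 2703 TPM in flox. TPM of libraries within batch 1 are not on 1 scale. The gap between 1767 and 1771 TPM therefore does not show that the groups were apart there. The part of these cells in the member levels was not tested. In bulk tissue, fewer cells of a type and less RNA per cell cannot be told apart.

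The genes most like Mmp2 in pattern, by Pearson's r of log2 CPM (counts scaled for library size) over 14 mouse libraries after each batch's mean was removed, were Col1a2 (r = 0.967), Col3a1 (0.964), Col1a1 (0.959), Cbr2 (0.958) and Scara5 (0.956). These libraries hold both genotypes. With the mean of each genotype and batch removed, r was 0.849, 0.896, 0.800, 0.912 and 0.871 in the same order. For Timp1 they were B4galt1 (0.868), Bpifb5 (0.852), Adcy4 (0.831), Lmna (0.828) and Sh3tc1 (0.828), and none of the 5 was called between genotypes. These values describe likeness and carry no test.

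Several members share their place with other genes on GRCm38, and the sources used here do not say whether counting used strand. Timp1 (chrX:20870166-20874735) lies inside the neuronal gene Syn1 on the opposite strand, with no shared exon base. Timp4 (chr6:115241892-115252205) lies inside Syn2, also opposite, with 90 shared exon bases, and inside Gm17482, opposite too, with no shared exon base. Syn1 and Syn2, added after their overlap was seen, had log2 fold changes of -0.24 ± 0.27 and -0.18 ± 0.20 (adjusted p = 0.588 and 0.577, edgeR). Mmp19 shares 789 exon bases with Tmem198b on the opposite strand, which was lower in knockout (-0.82 ± 0.15, adjusted p = 0.00193, edgeR). It also lies inside the antisense gene Gm47093, with 212 shared exon bases. Mmp11 shares 155 exon bases with Chchd10 (-0.33 ± 0.14, adjusted p = 0.112, edgeR), and Mmp24 shares 637 with BC029722. Timp2 overlaps Cep295nl on the same strand with no shared exon base. Reads of these shared stretches cannot be told apart without strand. Mmp2 (chr8:92827291-92853420), Mmp14 (chr14:54431612-54445364) and Mmp15 (chr8:95352268-95375080) overlap no other annotated gene.

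In monkeys no member was called between SADBE and vehicle ganglia. All 10 were tested among 17988 genes, of which 0.0% were called at an adjusted p under 0.05 by edgeR, 3.06% (550 genes) had an unadjusted p under 0.05, and DESeq2 called 28. No member had an unadjusted p under 0.05. The lowest was 0.144 for TIMP4, and all adjusted p were 0.999 by edgeR's quasi-likelihood test. The median log2 fold change of the members was -0.21, with 8 of 10 below 0, and that of all genes was -0.01. The SE of single members ran from 0.51 to 0.98, so differences of about 2-fold were not resolved with these 3 libraries a group.

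In units of 1000000 estimated counts, the monkey libraries held 9.02 to 22.4 with SADBE and 13.7 to 27.1 with vehicle. They did not separate by treatment: on the first principal component, with 45.6% of the variance, SADBE library 1 lay with vehicle libraries 1 and 2, and SADBE libraries 2 and 3 lay with vehicle library 3. Fibroblast markers summed to 395, 2022 and 2366 TPM in SADBE libraries 1 to 3 and to 3659, 1056 and 570 TPM in vehicle libraries 1 to 3. Like these sums, MMP2 and TIMP4 were highest in vehicle library 1 and lowest in SADBE library 1, which held for no other member. The part of fibroblasts in the member levels was not tested.

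MMP2 had 14.6, 50.3 and 50.3 TPM in SADBE libraries 1 to 3, against 75.3, 55.9 and 18.8 TPM in vehicle libraries 1 to 3. Each group held 1 low library, and the ranges overlapped (log2 fold change -0.29 ± 0.64). The other secreted proteases overlapped as well. MMP19 had 4.99, 2.27 and 3.59 TPM with SADBE and 7.03, 7.20 and 2.72 TPM with vehicle (-0.60 ± 0.51). MMP11 had 2.90, 1.35 and 0.993 TPM with SADBE and 1.15, 4.19 and 0.975 TPM with vehicle (-0.20 ± 0.72). MMP3 lay under 1 TPM in every library, with 4 to 26 estimated counts a library with SADBE and 1 to 32 with vehicle.

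Among the membrane-type members, MMP15 had 4.54, 2.25 and 1.92 TPM with SADBE and 2.52, 4.86 and 1.45 TPM with vehicle (log2 fold change 0.02 ± 0.54). MMP24 had 3.02, 1.603 and 1.80 TPM with SADBE and 0.674, 4.95 and 1.17 TPM with vehicle (0.02 ± 0.78). For both, the SADBE values lay inside the vehicle range. MMP14 had 0.366 to 0.516 TPM with SADBE and 0.133 to 0.713 TPM with vehicle, from 9 to 21 and from 4 to 53 estimated counts a library. The transcripts used for the monkeys are not given in the sources used here, so the low level of MMP14 beside the mouse level is a value of these tables only.

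**Figure D5:**
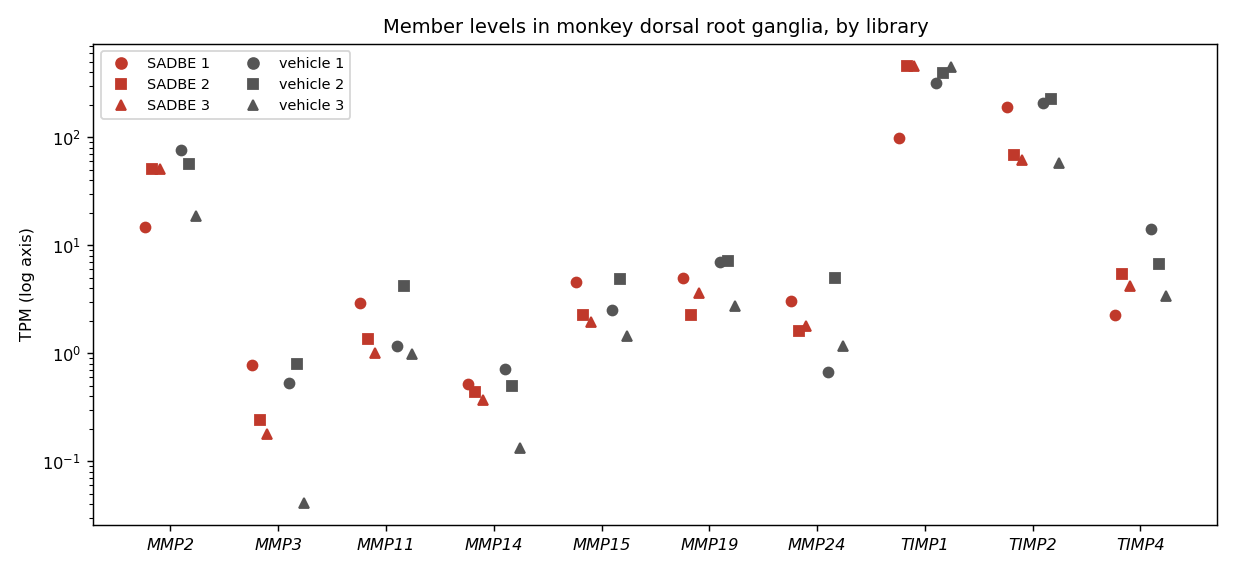
Level of each member in TPM (log axis) in the 3 SADBE (left, red) and 3 vehicle (right, grey) monkey libraries, with the replicate as shape. The ranges of SADBE and vehicle overlap for all 10 members, and TIMP1 (98.2 to 458 TPM with SADBE, 317 to 443 TPM with vehicle) is the highest by mean in both groups.

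TIMP1 had 98.2, 452 and 458 TPM in SADBE libraries 1 to 3 and 317, 396 and 443 TPM in vehicle libraries 1 to 3 (log2 fold change -0.22 ± 0.62). SADBE library 1 was the lowest of all, and the other 2 SADBE libraries were the highest. TIMP2 had 190, 68.0 and 61.7 TPM with SADBE and 209, 224 and 57.8 TPM with vehicle (-0.60 ± 0.61). Its levels followed the split of the libraries seen on the first component. TIMP4 had 2.25, 5.36 and 4.16 TPM with SADBE and 14.2, 6.64 and 3.39 TPM with vehicle (-1.01 ± 0.63), with overlap through vehicle library 3. The difference of TIMP4 was -0.29 without vehicle library 1. Over all genes tested, the ranges were apart for 5.04% with SADBE higher and for 3.99% with SADBE lower.

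By mean the order in both monkey groups began with TIMP1 (336 ± 206 TPM with SADBE and 385 ± 63.4 TPM with vehicle), TIMP2 (106 ± 72.2 and 164 ± 92.0) and MMP2 (38.4 ± 20.6 and 50.0 ± 28.7), as SD with n = 3. TIMP4, MMP19, MMP15, MMP24 and MMP11 followed between 1.75 and 3.92 TPM with SADBE and between 2.11 and 8.09 TPM with vehicle. MMP3 and MMP14 were last, at 0.401 and 0.440 TPM with SADBE and at 0.451 and 0.448 TPM with vehicle. TIMP1 and TIMP2 ranges were apart in vehicle libraries and overlapped with SADBE. The 7 MMPs summed to 31.4 to 59.1 TPM with SADBE and 25.3 to 87.9 TPM with vehicle. The 3 TIMPs summed to 290 to 525.7 TPM with SADBE and 504 to 627 TPM with vehicle. No gene of the monkey lists for the family, its activation, its substrates or its regulators was called. CLDN1 had the lowest p of those lists (log2 fold change -3.45 ± 0.88, unadjusted p = 0.00377, edgeR), with 1.31 ± 0.458 TPM with SADBE and 14.8 ± 13.8 TPM with vehicle.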

How the data were processed

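The authors deposited estimated counts per gene and TPM per gene for each species. Per the submitters' processing notes, kallisto was used with GRCm38; its version, the transcripts used for monkeys and the strand setting are not given in the sources used here. A mouse row that names no gene (0.0785% to 0.186% of counts) was left out. Estimated counts were rounded and tested with the quasi-likelihood test of edgeR 4.0.16 (R 4.3.3), TMM scaling and filterByExpr (minimum count 10, minimum total 15), with batch as a term in mice and Benjamini-Hochberg adjustment over all genes tested. The fit was tested on simulated counts. SEs derive from the F statistic. Alternatives were DESeq2 1.42.0, limma 3.58.1 (voom, and log2 TPM with pseudocounts 1 and 0.1), other scalings and filters, thinned counts, single batches and left-out libraries. No 2 libraries held the same counts: chi-square per gene was at least 21.0 within mouse groups and 26.5 within monkey groups, the lowest monkey value being that of SADBE libraries 2 and 3 (other monkey pairs 269 to 507). Named genes are all members, Adam17, for each list up to 4 called genes in each direction with the lowest p (2 with the lowest p where none was called), and the 5 genes most like Mmp2 and Timp1. Members, lists and alternatives were chosen with earlier results of these data known.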

Additional observations from a re-analysis of the deposited data

Results flagged for a closer look

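Mmp14 in flox library 1, at 9.80 TPM, stood below the other 6 flox libraries (15.5 to 19.2 TPM) by more than Dixon's test allows for 7 values. Mmp24 in flox library 2, at 5.64 TPM, stood below the other flox libraries (8.17 to 9.77 TPM) in the same way. Both libraries belong to batch 1, whose TPM sums were lower. With every TPM sum set to 1000000, Mmp24 in flox library 2 was 9.38, inside the 8.37 to 12.2 of other flox libraries. Mmp14 in flox library 1 was still the lowest of the flox libraries on that scale, at 12.3 beside 15.9 to 26.4 in the others. Dixon's test was run on TPM as deposited, so it does not say whether 12.3 stands apart. Dixon's test was run on 20 groups of mouse libraries, 2 were beyond it, and chance alone gives about 1 in 20. The genotype difference of Mmp15 differed between batches by -1.54 on the log2 scale (batch 2 minus batch 1), which passed the interaction test of edgeR, and its direction was lower in knockout in both.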

How the results depend on the processing

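In mice, 2423 genes and 4 members were called. Without the batch term 564 genes were called, within batch 1 there were 273 genes and 0 members, and leaving out 1 library at a time gave 1587 (without knockout library 5) to 3108 genes and 3 to 5 members. The call of Mmp2 was lost within batch 1, and under no other of the alternatives run; those of Mmp14 likewise. The interaction count of 161 became 50 to 445 as single libraries were left out. In monkeys, 0 genes were called by edgeR in each of 6 such fits and 28 by DESeq2, and no member was called in any. Timp2 was also lost with limma on log2(TPM + 1) or log2(TPM + 0.1) (-0.63 and -0.64), without the batch term (-0.19), within batch 1 (-0.24) and without knockout libraries 6 and 7 together (-0.47). Sign changes touched only differences within their SE of 0 or single-batch values: Mmp24 had -0.12 with library totals, -0.013 without a filter, -0.44 within batch 2, -0.031 with thinned counts and -0.092 to 0.12 with 1 library left out, and Timp1 had -0.20 within batch 1. MMP3 had 0.033 on log2(TPM + 0.1) and 0.091 with SADBE libraries 2 and 3 summed. MMP14 had 0.011 with voom, 0.012 on log2(TPM + 1) and 0.15 on log2(TPM + 0.1), and MMP15 had -0.090 with library totals. With 1 monkey library left out the log2 fold changes ran from -0.66 to 0.19 (MMP2), -0.98 to 0.35 (MMP3), -0.70 to 0.54 (MMP11), -0.41 to 0.56 (MMP14), -0.37 to 0.40 (MMP15), -0.46 to 1.11 (MMP24), -0.54 to 0.22 (TIMP1), -1.21 to -0.32 (TIMP2), -1.38 to -0.29 (TIMP4) and -0.90 to -0.37 (MMP19). Interaction terms ran from -0.50 to 0.033 (Mmp2) and -0.18 to 0.87 (Mmp19). The causes were not tested. The low counts of Mmp3 and of monkey MMP3 and MMP14 limit what can be read from them.

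Deviations of mouse samples with the same replicate number had r of -0.130 to 0.147. In monkeys r was 0.208, -0.312 and 0.233, and with groups of 3 such values cannot show whether samples were paired. The numbers were not taken as pairs in the main fits, and pairing by animal remains unknown. With the replicate block, 2103 mouse genes were called, Timp2 was lost (-0.56, adjusted p = 0.1045, edgeR), and MMP3 and MMP14 had 0.15 and 0.20. The block changed no other call of a member.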
